A study of Oryctolagus cuniculus with 30 samples.

Results

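Followed here were 11 probes of a custom rabbit array, those whose signal was higher in the wounded epidermis of the ear than in unwounded skin both at wound closure and again at day 5 afterwards, to a similar extent with and without an occlusive dressing. They were chosen by the authors' own measured values, on the log2 scale, among the 14558 probes of the UF_Ocu_AF design class. A probe was taken when its highest group mean was at least 9, its mean at day 0 was at least 1 above unwounded skin, its means at day 5 were at least 1.2 above unwounded skin in both arms, its mean at day 0 was less than 1 above uncovered day 5, and the uncovered and covered arms lay less than 0.8 apart at day 3 and at day 5. Of 23369 probes on the array, 11 met these conditions, and they belong to 10 contigs (assembled transcript sequences).

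The 30 arrays, each for 1 sample, measured RNA of ear epidermis from female rabbits of the New Zealand White breed. Grids of shallow incisions were cut in the ears and kept under a single layer of Tegaderm, a transparent film dressing, until the epidermis had closed, which is day 0. The dressing was then taken off the right ear (the uncovered arm), while further layers were put on the left ear (the covered arm). Unwounded skin had 2 arrays and the wound at closure had 6, the uncovered arm had 6 on each later day, day 3 and day 5, and the covered arm had 5 on each. Every wounded group had been through the dressing before closure, so no wounded group was left in air from the start. Arrays are not tied to animals in the labels, the ages are not given, and the ears of a single animal may have entered both arms, so a p-value speaks of the spread between the samples measured, which may be technical. In such tissue pieces, fewer cells of a type and less RNA per cell cannot be told apart.

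Closure of the epidermis is carried by keratinocytes, which leave their resting programme, migrate and divide, and afterwards rebuild the cornified barrier. Film dressings hold water in the new epidermis, and the study's title asks how hydration acts on proinflammatory genes of keratinocytes. The array files pair none of these probes with a gene, so no gene name, role or pathway is given below, and the labelled epidermis could not be checked against its marker genes.

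Because the probes carry no gene names, their sequences, taken from the array files in 5′ to 3′ direction, are what identifies them. The first 6 lines are the probes whose signal rose between day 3 and day 5, and the first pair comes from the same contig.
UF_Ocu_AF_102148: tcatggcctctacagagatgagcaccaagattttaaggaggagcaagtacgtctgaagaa
UF_Ocu_AF_102149: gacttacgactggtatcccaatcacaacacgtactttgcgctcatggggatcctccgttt
UF_Ocu_AF_105959: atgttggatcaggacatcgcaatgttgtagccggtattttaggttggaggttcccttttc
UF_Ocu_AF_106844: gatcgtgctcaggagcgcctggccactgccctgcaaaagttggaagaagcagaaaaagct
UF_Ocu_AF_105486: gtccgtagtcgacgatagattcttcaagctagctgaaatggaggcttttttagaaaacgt
UF_Ocu_AF_101430: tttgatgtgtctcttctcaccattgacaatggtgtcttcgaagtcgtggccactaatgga
The next lines are a pair of probes, from different contigs, with a stretch in common, which is in capitals.
UF_Ocu_AF_105133: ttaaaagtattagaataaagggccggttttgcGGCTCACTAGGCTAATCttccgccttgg
UF_Ocu_AF_107013: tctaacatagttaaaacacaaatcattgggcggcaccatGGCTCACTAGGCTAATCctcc
The last lines are a probe of the set and the other probe of its contig, whose mean at day 3 lay below unwounded skin where that of the first lay above.
UF_Ocu_AF_100163: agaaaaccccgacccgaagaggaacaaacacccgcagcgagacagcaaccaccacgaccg
UF_Ocu_AF_100164: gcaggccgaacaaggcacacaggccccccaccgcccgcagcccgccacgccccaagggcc

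The shared stretch GGCTCACTAGGCTAATC is 17 bases long and was searched on both strands. As an exact match it stood in 3 of the 23369 probes, or 0.0128%, and the third was UF_Ocu_AF_106080, named here after its values were seen. The next longest stretch shared by any other pair of the 11 probes had 8 bases. The share of G and C bases ran from 41.7 to 61.7% with a median of 45.0%, which is also the median of all probes.

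The levels below are the scanner's processed signal on the log2 scale, relative to each array's 75th percentile over probes measured well above background on every array. The group means in the authors' values followed 2 courses, so a signal that simply stayed raised from closure to day 5 is not what all 11 probes showed. For 6 probes the authors' mean log2 values at day 3 were below those of day 0 in both arms and then climbed above them at day 5. UF_Ocu_AF_102148, for example, had means of 8.59 in unwounded skin, 10.67 at day 0, 9.21 and 9.26 at day 3 in the uncovered and covered arms, and 12.35 and 12.29 at day 5. The other 5 probes, such as UF_Ocu_AF_107966 with 10.53, 11.66, 12.41, 12.54, 12.63 and 11.94 in the same order, did not have both day 3 means below day 0. These courses describe group means, and most of the falls from day 0 to day 3 were not called on the scanner levels. Those of UF_Ocu_AF_102148 had limma adjusted p = 0.0509 uncovered and 0.068 covered. For UF_Ocu_AF_105959 the authors' mean went only from 13.30 to 13.00 uncovered and 13.24 covered (limma adjusted p = 0.739 and 0.959 on the scanner levels).

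Between day 3 and day 5, a comparison that the choice of probes did not use although its day 5 arrays were used, 6 of the 11 probes rose in the uncovered arm and the same 6 rose in the covered arm. Of all 12341 probes tested with limma at an adjusted p under 0.05, 28.4% rose in the uncovered arm and 15.1% in the covered arm. The median log2 change of the 11 probes was 2.18 in the uncovered arm, against 0.27 over all probes tested, and 2.06 in the covered arm, against 0.12. High day 5 levels were a condition of membership, which favours this direction.

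UF_Ocu_AF_102148, on contig R4.139.C1, had log2 levels of -6.26 and -6.13 in unwounded skin. It was well above background on 28 of the 30 arrays, but not on unwounded replicate 1 or uncovered day 3 replicate 1. At day 0 its lowest, median and highest levels were -5.44, -2.95 and -1.11, at uncovered day 3 they were -6.36, -5.80 and -1.46, and at uncovered day 5 they were -1.65, -0.84 and -0.72. The covered arm stood at -4.02, -6.31, -6.08, -6.65 and -2.30 at day 3 and at -1.29, -1.64, -0.83, -0.59 and -0.54 at day 5. Every covered array at day 5 was above every covered array at day 3, and in the uncovered arm the groups overlapped through the single high array, uncovered day 3 replicate 6. The log2 rise was 4.20 (SE 0.82, limma adjusted p = 0.000265) in the uncovered arm. In the covered arm the log2 rise was 4.09 (SE 0.90, limma adjusted p = 0.00248).

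The day 0 group of this probe was not uniform. Replicates 1 to 3 stood at -4.57, -5.02 and -5.44, and replicates 4 to 6 at -1.11, -1.32 and -1.24, so the upper arrays were within the range of day 5 and the lower ones stood between them and unwounded skin. The second probe of the contig, UF_Ocu_AF_102149, split the same arrays in the same way, with -3.23, -3.77 and -4.11 against -0.54, -0.50 and -0.48. Over the 30 arrays the pair correlated with r = 0.997, a description of probes on the same contig and the same arrays. The log2 rise of UF_Ocu_AF_102149 from day 3 to day 5 was 3.69 (SE 0.69, limma adjusted p = 0.000162) uncovered and 3.52 (SE 0.76, limma adjusted p = 0.00205) covered.

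UF_Ocu_AF_106844, on contig R4.2301.C1, had the smallest standard error of the 6. Its log2 levels were -2.87 and -3.52 in unwounded skin, and the lowest, median and highest were -2.62, -1.86 and -0.66 at day 0. At uncovered day 3 they were -2.79, -2.25 and -1.52, and at uncovered day 5 they were 0.70, 0.93 and 1.31. In the covered arm the arrays stood at -2.72, -2.69, -2.83, -1.79 and -2.08 at day 3 and at -0.21, 0.41, 0.39, 0.42 and 0.60 at day 5. The day 5 arrays lay above all day 3 arrays in both arms, and also above all arrays of day 0 and of unwounded skin. The rise was 3.19 log2 units (SE 0.28, limma adjusted p = 2.57e-09) uncovered, which is 9.09-fold, and 2.74 (SE 0.31, limma adjusted p = 7.61e-07) covered, which is 6.70-fold. All uncovered arrays at day 5 were above all covered ones for this probe, a difference of 0.65 in the group means that the choice of probes had limited and that was not tested.

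UF_Ocu_AF_105486, on contig nbc41g12.y1, had log2 levels of -3.81 and -2.43 in unwounded skin and -3.28, -2.08 and -0.39 as lowest, median and highest at day 0. At uncovered day 3 these were -4.21, -3.50 and -2.34, and at uncovered day 5 they were -0.90, -0.68 and -0.58. The covered arm had -3.76, -4.05, -4.42, -2.56 and -2.63 at day 3 and -0.49, -0.76, -0.87, -1.15 and -1.03 at day 5. The day 5 arrays sat in a narrow band above every day 3 array in both arms. The log2 rise was 2.64 (SE 0.43, limma adjusted p = 2.91e-05) uncovered and 2.62 (SE 0.47, limma adjusted p = 0.000314) covered.

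UF_Ocu_AF_101430 followed UF_Ocu_AF_105486 with r = 0.937 over 30 arrays, at a level near background. It was well above background on 25 of the 30 arrays, and its unwounded levels were -6.16 and -5.68. At day 0 the lowest, median and highest were -5.72, -4.02 and -2.61, at uncovered day 3 they were -6.69, -5.83 and -2.88, and at uncovered day 5 they were -3.38, -3.11 and -2.88. The covered arrays were -6.39, -6.45, -7.42, -4.74 and -5.40 at day 3 and -3.56, -3.91, -3.33, -3.03 and -3.19 at day 5. Days 3 and 5 did not overlap in the covered arm and met in the uncovered arm through uncovered day 3 replicate 6. The log2 rise was 2.18 (SE 0.55, limma adjusted p = 0.00266) uncovered and 2.68 (SE 0.60, limma adjusted p = 0.00304) covered.

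UF_Ocu_AF_105959, on contig nag12b01.x1, was the least steady of the 6. Its log2 levels were -0.82 and -1.99 in unwounded skin and -1.49, 0.41 and 1.31 as lowest, median and highest at day 0. At uncovered day 3 they were -1.01, -0.55 and 1.09, and at uncovered day 5 they were 1.13, 2.03 and 3.25. The covered arm had -0.64, 1.13, -1.05, 0.60 and 0.45 at day 3 and -0.67, 3.01, 2.91, 3.07 and 2.47 at day 5. The uncovered days did not overlap, and the covered days overlapped through covered day 5 replicate 1, an array of slide 6. The log2 rise was 2.32 (SE 0.61, limma adjusted p = 0.00369) uncovered and 2.06 (SE 0.67, limma adjusted p = 0.0292) covered. The covered call was lost when covered day 3 replicate 1 or 3 or covered day 5 replicate 2, 3, 4 or 5 was left out, with limma adjusted p from 0.0593 to 0.0873, and without both arrays of slide 6 the covered log2 rise was 2.77 (limma adjusted p = 0.00176).

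Arrays lay on 11 slides, and 4 of them held both days of the uncovered arm and 2 held both days of the covered arm. Within those slides, day 5 was above day 3 for the 6 rising probes in 24 of 24 differences of the uncovered arm, from 1.16 to 5.21 log2 units. In the covered arm it was above in 12 of 12, from 1.53 to 6.11. The 6 probes were picked as rising on these same arrays, which favours this direction, and a pair of them shares a contig. The within-slide differences are therefore a description. Without the 2 arrays of slide 6, the same 6 probes were called in both arms. Arrays of day 5 and day 3 did not overlap for 3 of the 11 probes in the uncovered arm, against 17.3% of all probes tested, and for 5 in the covered arm, against 13.1%.

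The array holds 9 further probes on the contigs of the set that are not members. The conditions did not choose them, but they were read on the same arrays, including those of day 5, so they are not independent samples. Of the 6 among them that were tested, 5 were called higher at day 5 than day 3 uncovered and 4 covered, against 28.4% and 15.1% of all probes tested. For each of the rising contigs with a single member, the second probe rose in both arms, at levels close to background for some of them. UF_Ocu_AF_106843, the partner of UF_Ocu_AF_106844, rose by 3.26 (SE 0.34, limma adjusted p = 3.79e-08) uncovered and by 3.04 (SE 0.37, limma adjusted p = 2.49e-06) covered. It missed the set only because its day 0 mean was 0.89 above unwounded skin in the authors' values. UF_Ocu_AF_105960, the partner of UF_Ocu_AF_105959, rose by 2.02 (SE 0.42, limma adjusted p = 0.000524) and by 1.91 (SE 0.46, limma adjusted p = 0.00539). UF_Ocu_AF_101429, the partner of UF_Ocu_AF_101430, rose by 1.68 (SE 0.64, limma adjusted p = 0.0348) and by 2.27 (SE 0.70, limma adjusted p = 0.0229). It was well above background on only 2 of 6 uncovered and 2 of 5 covered day 3 arrays, so these sizes are uncertain. Its uncovered call was lost without uncovered day 3 replicate 3, 4 or 5 or day 5 replicate 4 or 6, and its covered call without covered day 3 replicate 1, 2 or 3 or day 5 replicate 4 or 5. The uncovered call was also lost with the percentile over all probes, quantile normalization and the authors' values (limma adjusted p = 0.0548, 0.0972 and 0.238). With the authors' values the covered call was lost too (limma adjusted p = 0.0509). UF_Ocu_AF_105485, the partner of UF_Ocu_AF_105486, was not well above background on any of the 6 uncovered day 3 arrays and on 4 of 6 at day 5. With each dim array held at its lowest signal of a probe well above background, it was at least 2.24-fold higher at uncovered day 5. That bound was not tested. The limma test used the levels without it, with a log2 change of 2.47 uncovered (limma adjusted p = 0.000353). In the covered arm 1 of 5 arrays at day 3 and 5 of 5 at day 5 were well above background. There it was also called (limma adjusted p = 0.0008). With normexp background correction UF_Ocu_AF_105485 and UF_Ocu_AF_101429 were called in neither arm and UF_Ocu_AF_105960 was not called in the covered arm (limma adjusted p from 0.0667 to 0.382).

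The second probes of the remaining contigs were mostly too dim to compare. UF_Ocu_AF_105134, UF_Ocu_AF_107014 and UF_Ocu_AF_107965, the partners of UF_Ocu_AF_105133, UF_Ocu_AF_107013 and UF_Ocu_AF_107966, were well above background on 0 of 30 arrays, so they show nothing of their contigs. UF_Ocu_AF_113232, the partner of UF_Ocu_AF_113233, stayed between group means of -2.26 and -1.91, and its log2 change from day 3 to uncovered day 5 was 0.09 (SE 0.13, limma adjusted p = 0.589), beside 0.09 for its member (SE 0.34, limma adjusted p = 0.832). UF_Ocu_AF_100164 had its highest group mean in unwounded skin, with arrays at 2.23 and 2.60, although covered day 5 replicate 1 of slide 6 stood at 3.43. Its uncovered day 3 arrays ran from 0.86 to 1.99, below both. Its log2 difference between uncovered day 3 and unwounded skin was -1.11 (SE 0.37, limma adjusted p = 0.0452). That call was lost without slide 6 (-0.93) and without either unwounded array. It was also lost with normexp, without the filter on dim probes, with array weights, and with replicate number, slide or scan day as a block. With the slide block the log2 difference was -0.43 (limma adjusted p = 0.582). Leaving out a single array of other groups, such as any uncovered day 5 array, was enough to lose it too. For UF_Ocu_AF_100163 from the same contig, uncovered day 3 differed by 5.77, against unwounded replicate 1 alone. From day 3 to day 5 UF_Ocu_AF_100164 was called higher uncovered (0.68, SE 0.26, limma adjusted p = 0.0366) but not covered (0.66, limma adjusted p = 0.0965). The uncovered call was lost with the percentile over all probes, normexp and the slide block, among others. UF_Ocu_AF_100163 went the other way, by -0.94 uncovered and -0.49 covered, with no call.

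Of the 5 probes with no called change from day 3 to day 5, 4 owed their place to a single unwounded array. The array of unwounded replicate 2, on slide 6 together with covered day 5 replicate 1, was low for all 4.

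UF_Ocu_AF_105133, on contig nag03e11.x1, had log2 levels of 1.68 and -0.72 in unwounded skin. At day 0 the lowest, median and highest were 1.52, 1.80 and 1.90, at uncovered day 3 they were 1.42, 1.61 and 2.08, and at uncovered day 5 they were 1.60, 1.97 and 2.28. The covered arm had 2.12, 2.16, 2.19, 1.85 and 1.99 at day 3 and -0.78, 2.41, 2.24, 2.64 and 2.36 at day 5. Unwounded replicate 1 lay inside the range of the wounded arrays, and the slide 6 arrays were the only ones below 1. In the authors' log2 values its covered day 5 mean was -0.03 relative to unwounded replicate 1 and 2.45 relative to replicate 2.

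UF_Ocu_AF_107013, on contig nbc26b08.y1, shares the capital stretch above with UF_Ocu_AF_105133, and the slide 6 arrays were the lowest 2 for both probes. Its log2 levels in unwounded skin were -0.33 and -2.84, covered day 5 was -2.61, 0.55, 0.31, 0.48 and 0.27, and day 0 ran from -0.41 to 0.07. Uncovered day 3 ran from -0.58 to 0.51, uncovered day 5 from -0.51 to 0.40 and covered day 3 from -0.20 to 0.57, so unwounded replicate 1 lay inside the ranges of day 0 and of both uncovered groups. The pair correlated with r = 0.975 over 30 arrays and 0.879 without slide 6. Its authors' log2 mean at day 0 was 0.10 above unwounded replicate 1 and 2.38 above replicate 2.

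UF_Ocu_AF_107966 had log2 levels of -1.30 and -5.15 in unwounded skin, and covered day 5 was -5.43, -0.09, -0.69, -0.09 and -0.56. At day 0 the lowest, median and highest were -2.29, -1.45 and -1.14, and at uncovered day 3 they were -1.13, -0.83 and -0.23. The covered day 3 arrays had a median of -0.53 and a highest level of 0.02, and uncovered day 5 ran from -0.90 to -0.26. All day 3 arrays of both arms were above all day 0 arrays. The log2 differences from day 0 were 0.86 uncovered (SE 0.63, limma adjusted p = 0.313) and 1.04 covered (SE 0.66, limma adjusted p = 0.212). Without slide 6, whose low arrays enter the shared spread, the same differences of 0.86 and 1.04 passed the test, with limma adjusted p = 0.00359 and 0.000718.

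UF_Ocu_AF_113233, on contig R4.3629.C1, had log2 levels of 0.41 and -1.58 in unwounded skin, 0.83, 1.14 and 1.46 as lowest, median and highest at day 0, and 0.77, 1.25 and 2.47 at uncovered day 3. Covered day 3 stood at 0.69, 1.51, 0.94, 0.80 and 0.66, covered day 5 at 1.32, 1.41, 1.59 and 0.68, and uncovered day 5 ran from 0.41 to 2.47. The uncovered day 3 arrays were all above both unwounded arrays, the nearer of which was 0.41. Its authors' log2 mean at day 0 was 0.60 above unwounded replicate 1 and 2.72 above replicate 2. The covered day 5 replicate 1 spot was marked as an outlier by the scanner program and was left out.

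With unwounded replicate 1 alone as the reference, 11 probes met the conditions and 7 of them were members. With replicate 2 alone, 96 probes met them and 8 were members. Only UF_Ocu_AF_102148, UF_Ocu_AF_102149, UF_Ocu_AF_105959 and UF_Ocu_AF_106844 met them with either array alone. Their authors' log2 means at covered day 5 were 2.94 to 3.89 above replicate 1 and 3.35 to 3.95 above replicate 2. UF_Ocu_AF_100163, UF_Ocu_AF_105486 and UF_Ocu_AF_101430 met them with replicate 1 alone but not with replicate 2 alone, and the 4 probes described above did the reverse. Without both arrays of slide 6, 15 probes met the conditions, 7 of them members, and without covered day 5 replicate 1 alone it was 20, with all 11 members among them. What sets slide 6 apart was not tested.

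UF_Ocu_AF_100163, on contig nbd22h03.y1, stood at -5.50 in unwounded replicate 1, and its unwounded replicate 2 and covered day 5 replicate 1 spots, both on slide 6, were left out as outliers marked by the scanner program. At day 0 its lowest, median and highest levels were -3.50, -1.44 and -0.10, at uncovered day 3 they were -0.60, 0.20 and 1.65, and at uncovered day 5 they were -1.27, -0.68 and 0.13. The covered arm had 0.23, 0.93, 0.93, -2.25 and -3.08 at day 3 and 0.54, 0.17, -2.96 and -2.27 on the remaining day 5 arrays. Every wounded array was above the 1 unwounded array left, and the covered arrays fell into a high and a low set on both days. The authors' log2 values hold a value for unwounded replicate 2, 10.92. Some wounded arrays lay below it, such as day 0 replicate 6 at 10.13 and covered day 5 replicate 4 at 10.15.

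Relative to unwounded skin, the day 0 and day 5 differences chose the set and are given without a test. In the scanner values the log2 difference between uncovered day 5 and unwounded skin ran from 1.50 for UF_Ocu_AF_105133 to 5.20 for UF_Ocu_AF_102148. Without slide 6 the same differences were 0.30 and 5.27. At covered day 5 they ran from 1.30 for UF_Ocu_AF_105133 to 5.21 for UF_Ocu_AF_102148, and without slide 6 they were 0.73 and 5.35. The wounded arrays lay above every unwounded array measured (for UF_Ocu_AF_100163 only replicate 1) for 5 of the 11 probes at day 0 (16.6% of all probes tested), for 9 at uncovered day 5 (31.3%) and for 8 at covered day 5 (17%).

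At day 3 few of the 11 probes passed the test against unwounded skin, which had only 2 arrays. In the uncovered arm 2 rose, against 7.6% of all probes tested, and in the covered arm 0 of the 11 passed the limma test, against 1.6% that rose. At an unadjusted limma p under 0.05 the counts were 6 uncovered, against 16.9% of all probes tested, and 5 covered, against 11.8%. Low unwounded values were favoured by the choice of probes, which used these 2 arrays, so a higher level at day 3 is favoured too. The median log2 difference of the 11 was 1.22 uncovered and 1.50 covered, against 0.05 and 0.09 over all probes tested. The first of the 2 was UF_Ocu_AF_100163, with a log2 difference of 5.77 that rests on unwounded replicate 1 alone. In the authors' log2 values, with both unwounded arrays, the difference was 3.63. The second was UF_Ocu_AF_113233, with 1.93 (SE 0.48, limma adjusted p = 0.00853). Without unwounded replicate 2 its difference was 0.94 (limma adjusted p = 0.515), which is no call. UF_Ocu_AF_102148 and UF_Ocu_AF_102149 differed by 1.00 (SE 1.16, limma adjusted p = 0.578) and 0.68 (SE 0.98, limma adjusted p = 0.659) at uncovered day 3. UF_Ocu_AF_105486 and UF_Ocu_AF_101430 differed by -0.37 (SE 0.62, limma adjusted p = 0.774) and -0.16 (SE 0.80, limma adjusted p = 0.933) at covered day 3. The uncovered count was 4 without unwounded replicate 1, 1 without unwounded replicate 2 and 5 without covered day 5 replicate 1. The covered count was 4 without unwounded replicate 1 or covered day 5 replicate 1, and 1 without day 0 replicate 6 or covered day 3 replicate 4 or 5.

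Relative to day 0, 2 of the 11 probes had fallen at uncovered day 3, against 15.1% of all probes tested, and 3 at covered day 3, against 18.2%. A high day 0 mean was a condition of membership, which favours a fall. All of the probes that fell belong to the 6 that rose again by day 5. The same day 3 arrays enter both comparisons, so a low day 3 mean favours both calls. UF_Ocu_AF_105486 fell in both arms, with log2 differences of -1.46 (SE 0.43, limma adjusted p = 0.00839) uncovered and -1.59 (SE 0.45, limma adjusted p = 0.00488) covered, and both calls held whichever array was left out. UF_Ocu_AF_101430 fell in the covered arm by 1.97 on the log2 scale (SE 0.58, limma adjusted p = 0.00655), also whichever array was left out, and its uncovered difference did not pass the test (limma adjusted p = 0.0933). UF_Ocu_AF_102149 fell in the uncovered arm, by 1.80 (SE 0.69, limma adjusted p = 0.0428), and the call was lost without day 0 replicate 4, 5 or 6 or uncovered day 3 replicate 1, 2, 3, 4 or 5, with limma adjusted p from 0.0791 to 0.116. UF_Ocu_AF_106844 fell in the covered arm, by 0.81 (SE 0.30, limma adjusted p = 0.0273), and the call was lost without day 0 replicate 1 or 6 or covered day 3 replicate 1, 2 or 3, with limma adjusted p from 0.0654 to 0.0848. The uncovered count of called probes, in either direction, was 4 to 6 without day 0 replicate 2 or 3, uncovered day 3 replicate 6 or covered day 3 replicate 5. It was 1 without day 0 replicate 6 or uncovered day 3 replicate 1, 2, 3 or 4. At uncovered day 3 UF_Ocu_AF_100163 was called higher than day 0 without day 0 replicate 2, 4 or 5. It was also called without uncovered day 3 replicate 5 or 6, covered day 3 replicate 5 or covered day 5 replicate 4. With all arrays its log2 difference was 1.82 (SE 0.74, limma adjusted p = 0.0565). The covered count was 5 without day 0 replicate 2 or 3, uncovered day 3 replicate 6 or covered day 3 replicate 5.

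Near the thresholds, the members closest to the day 0 condition were UF_Ocu_AF_105486 and UF_Ocu_AF_107966, both 1.13 above unwounded skin in the authors' log2 values. The nearest probes outside it were UF_Ocu_AF_104571 at 0.93 and UF_Ocu_AF_106843 at 0.89, and 37 probes failed that condition alone. At covered day 5 the nearest members were UF_Ocu_AF_105133 at 1.21 and UF_Ocu_AF_101430 at 1.24, and the nearest outside were UF_Ocu_AF_104033 at 1.17 and UF_Ocu_AF_112767 at 1.15, with 18 probes failing that condition alone. At uncovered day 5 UF_Ocu_AF_105133 at 1.38 and UF_Ocu_AF_107013 at 1.40 were nearest inside and UF_Ocu_AF_111751 at 0.82 was outside. UF_Ocu_AF_100163 was nearest to the limit on the arms at day 3, which lay 0.79 apart, and UF_Ocu_AF_111079 was outside with 1.07. At day 5 the arms of UF_Ocu_AF_107966 lay 0.69 apart, and those of UF_Ocu_AF_112409 outside lay 0.97 apart.

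Among probes outside the set, those with the highest correlation with the mean of the 11 over the 30 arrays were UF_Ocu_UN_121712 with r = 0.918, UF_Ocu_AF_104571 with r = 0.915 and UF_Ocu_AF_110919 with r = 0.898. The mean log2 level of UF_Ocu_AF_104571 was -5.08 in unwounded skin (SD 0.56, n = 2) and -3.78 at closure (SD 0.51, n = 6). Uncovered, it was -4.28 at day 3 (SD 0.41, n = 6) and -1.63 at day 5 (SD 0.19, n = 6). Covered, it was -4.10 (SD 0.40, n = 5) and -2.23 (SD 0.49, n = 5). These correlations describe arrays that share slides and groups.

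The arrays were alike in signal: 39.7 to 50.4% of probes were well above background, arrays of a group correlated with r from 0.915 to 0.994, and no 2 arrays were identical. None of the 11 probes was saturated on any array.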

How the data were processed

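Epidermal RNA was hybridised in 1 colour (Cy3), 1 sample per array. Per the file headers, the deposited scanner files are Feature Extraction output with a background-subtracted intensity per spot and, as other columns, flags of 0 or 1 for detection, saturation and outliers. A deposited series table has the authors' own linear intensity values, 1 per probe, with column medians of 288 to 293, for which no background correction or offset is stated in the labels or headers. Their tool was limma, per the submitters' processing notes. The conditions that chose the probes were applied to log2 of this table, and the levels and tests come from the scanner files.

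Control spots and outlier-marked spots were left out, which removed 488 probe values. Spots of the same probe were averaged on the log2 scale (20184 probes had 2 spots, 3185 had 1). From each array its 75th percentile was subtracted, taken over the 7446 probes that were detected (well above background) everywhere, since at most 50.4% were detected on an array. Testing covered the 12341 probes detected on 2 or more arrays. One limma model (version 3.58.1, R 4.3.3) with 6 groups was fitted to all arrays without covariates, 2-sided, with Benjamini-Hochberg adjustment over all probes tested and a threshold of 0.05. It was tested on simulated data. The number of arrays limits the precision, most of all the 2 unwounded arrays. The probes and comparisons were chosen with earlier results of these data known.

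The probes named were, per contig, the one with the largest day 5 differences, up to 3 called probes per direction and comparison, those nearest each threshold, the other probes of the contigs, and the 3 most alike. Arrays lay on 11 slides scanned on 3 days, per the file headers. Alternatives were other scalings, normexp (offset 50), the authors' values, no filter, array weights, blocks for replicate number, slide and scan day, each array left out, and both arrays of slide 6 left out. Leaving out slide 6 when applying the conditions was added after seeing the data. Replicate numbers do not come with shared animals in the labels, and same-numbered samples did not deviate together.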

Additional observations from a re-analysis of the deposited data

Results flagged for a closer look

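Of 55 sets of 4 to 6 arrays, the 11 probes in each of the 5 wounded groups, 8 had an array that stood apart from the rest, by the gap to its neighbour relative to the group's range, where chance gives about 1 in 20. Of these, 5 were covered day 5 replicate 1, an array of slide 6. It had log2 levels of -0.67 for UF_Ocu_AF_105959 (the other arrays from 2.47 to 3.07), -0.21 for UF_Ocu_AF_106844 (0.39 to 0.60) and -5.43 for UF_Ocu_AF_107966 (-0.69 to -0.09). For UF_Ocu_AF_107013 it had -2.61 (0.27 to 0.55), and for UF_Ocu_AF_105133 it had -0.78 (2.24 to 2.64).

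Uncovered day 3 replicate 6 was high for both probes of contig R4.139.C1, with -1.46 for UF_Ocu_AF_102148 (the others from -6.36 to -5.72) and -0.70 for UF_Ocu_AF_102149 (-4.70 to -4.36). Uncovered day 3 replicate 3 had 2.47 for UF_Ocu_AF_113233 (0.77 to 1.32).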

How the results depend on the processing

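The 6 rises from day 3 to day 5 were called in both arms under every alternative except for UF_Ocu_AF_105959 in the covered arm, which was lost with normexp (2.06, limma adjusted p = 0.0714); over single arrays left out the count stayed at 6 uncovered and was 5 to 6 covered. For day 3 against unwounded skin, the uncovered count of 2 became 1 with slide or scan day as a block or without slide 6 and 0 with array weights (1 to 5 over single arrays), and the covered count of 0 became 1 with either block (0 to 4). For uncovered day 3 against day 0, the count of 2 became 5 with the percentile over all probes, quantile normalization or array weights, 4 with the slide block, and 1 with normexp or no filter (1 to 6). Counts against day 0 take calls in both directions. The covered count of 3 became 5 with the percentile over all probes and 6 with the slide block (2 to 5). With the replicate number as a block the counts, in the order given, were 6, 6, 2, 0, 3 and 3; same-numbered samples correlated from -0.72 to 0.53 in their deviations, so the numbers were not taken as pairs. Under the conditions for membership, 96 probes were found with unwounded replicate 2 alone, 37 on scanner values, 15 without slide 6, and 8 to 96 over single arrays. On scanner values 7 of the 37 were members. UF_Ocu_AF_100163, UF_Ocu_AF_105133, UF_Ocu_AF_107013 and UF_Ocu_AF_113233 did not meet the conditions there. Log2 changes of single probes were also compared under the percentile over all probes, quantile normalization, normexp, the authors' values and without slide 6. The blocks, array weights, no filter and single arrays left out are not in this count. Of these 330 recomputed changes, 315 stayed called or stayed not called, 11 became called and 4 lost the call. Among those called in either setting 0 reversed direction. Changes called in neither could reverse, as UF_Ocu_AF_107013 did from covered day 3 to day 5, from -0.29 to 0.31 without slide 6. Over all probes tested, calls ranged from 206 to 2938 (1690 as reported) and from 11 to 1873 (314) for day 3 against unwounded skin, uncovered and covered, from 2432 to 6111 (4402) and 3434 to 6971 (5495) against day 0, and from 2295 to 7955 (5531) and 688 to 6822 (2746) for day 5 against day 3. The cause was not tested. Signals near background limit UF_Ocu_AF_101430 and UF_Ocu_AF_102148, well above it on 25 and 28 of 30 arrays, and the 2 unwounded arrays limit every comparison with unwounded skin.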

Other observations

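Among the other design classes of the array, 13 probes met every other condition of the set. Of these, UF_Ocu_UN_119228 and UF_Ocu_UN_123285 hold the last 9 bases of the stretch shared by UF_Ocu_AF_105133 and UF_Ocu_AF_107013, AGGCTAATC, which stood in 15 of the 23369 probes, or 0.0642%, on either strand. UF_Ocu_UN_119228 holds the whole stretch but for an inserted t, and UF_Ocu_UN_123285 holds it with other bases in its middle. The shares given count exact matches only and miss such near copies. In the authors' log2 values, UF_Ocu_UN_119228 had means of 13.77 in unwounded skin, 14.99 at day 0, 15.02 and 15.50 at day 3 and 15.11 and 15.05 at day 5, uncovered before covered. UF_Ocu_UN_123285 had 13.67, 14.97, 15.00, 15.47, 15.11 and 14.98 in the same order, and UF_Ocu_AF_105133 had 13.88, 15.02, 15.02, 15.51, 15.26 and 15.09. UF_Ocu_AF_106080, which holds the whole stretch, rose from day 3 to day 5 by 1.28 on the log2 scale (SE 0.27, limma adjusted p = 0.000618) uncovered and by 0.91 (SE 0.30, limma adjusted p = 0.0313) covered, the latter a call lost without covered day 3 replicate 1, 2 or 3 or covered day 5 replicate 2, 3 or 4 (limma adjusted p from 0.0502 to 0.0912), while UF_Ocu_AF_105133 and UF_Ocu_AF_107013 were not called in either arm.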
